A study of Mus musculus with 20 samples.

Results

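The respiratory chain of the inner mitochondrial membrane is built from proteins of 2 genomes, and its genes were followed here through the first steps of differentiation of mouse embryonic stem cells. Members were chosen by symbol only: the 13 genes whose symbols start with mt-, and the nuclear genes of the Nduf, Sdh, Uqcr, Cox4 to Cox8 and Atp5 families, without pseudogenes. This gave 97 members of 27998 annotated genes, of which 13 are mitochondrial and 84 nuclear. By symbol, complex I has 7 mt- and 37 nuclear members, complex II has 4 nuclear members, complex III has 1 and 8, complex IV has 3 and 18, and complex V has 2 and 17. Ndufa4 and its paralogue Ndufa4l2 are placed with complex I by their symbols, although the NDUFA4 protein is known as a subunit of complex IV.

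The cells were a male 129P2/OlaHsd embryonic stem cell line kept with LIF, GSK3 inhibitor XV and UO126, and all groups share that start, the withdrawal of the inhibitors and serum-free culture before treatment. Signals were then switched on (plus) or off (minus) in combination for 24 h, and each condition was tagged by transfected short RNAs (barcodelets) so that pooled cells of all conditions could be sequenced in 1 droplet library per experiment. In the germ layer experiment the plus and minus agents were RA and CD 2665 for retinoic acid, GSK3 inhibitor XV and IWR1 for Wnt, Activin A and A8301 for Tgfb, Bmp4 and Dorsomorphin for Bmp, and Fgf2 and UO126 for Fgf, giving 32 populations. In the mesendoderm experiment cells first spent 24 h with GSK3 inhibitor XV, Fgf2 and Activin A together with the blockers Dorsomorphin and CD 2665, and then received plus or minus levels of 7 signals, the same 5 with Notch and Shh, in 384 wells. The mixed experiment gave the 5 signals to cells with this mesendoderm start and to cells with an undirected start, with control wells of each start that had no combinatorial treatment. The agents behind plus and minus are taken from the germ layer labels, and those of the other experiments are not stated in the sources used. Conditions were known only by their barcodelets, in the mesendoderm and mixed experiments by combinations of them. The effects of barcodelets and of signals were therefore not told apart, and the part of the barcodelets was not tested.

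Electrons from NADH enter at complex I and those from succinate at complex II, pass through complex III to complex IV, which reduces oxygen, and the proton gradient this builds drives the ATP synthase, complex V. Mitochondrial DNA codes a core set of subunits, is transcribed as long polycistronic RNAs from both strands, and has its own polymerase, while all other subunits are nuclear genes. Pluripotent cells are known for high glycolysis, and their use of the respiratory chain changes as they differentiate.

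Of the deposited cells, 4350 of 8421 (51.7%) in the germ layer experiment, 2899 of 12781 (22.7%) in the mesendoderm experiment and 4869 of 5944 (81.9%) in the mixed experiment passed the assignment to a condition. Their counts of unique molecular identifiers (UMIs) were summed per population, keeping 32 germ layer populations, 300 mesendoderm wells and 142 mixed wells with at least 5 cells. A population held 991630 to 3816595 UMIs (germ layer), 27701 to 332644 (mesendoderm) or 101140 to 2119355 (mixed). Unless stated otherwise, a level below is in CPM, the UMIs of a gene scaled to a fixed library total, after TMM scaling, in which the cells of a population are pooled, so that fewer cells of a type and less RNA per cell cannot be told apart. Marker sums are in CPM without TMM scaling. Pluripotency genes (Pou5f1, Sox2, Nanog and 4 others) summed to 146 to 1487 CPM in germ layer populations, 26.5 to 1214 CPM in mesendoderm wells and 417 to 2665 CPM in mixed wells. Fibroblast feeder markers reached at most 61.8, 222 and 48.3 CPM in those experiments, and the blood gene Hbb-bt and the trophoblast gene Prl3d1 had no UMIs. Libraries shared 151 (germ layer and mesendoderm), 64 (germ layer and mixed) and 111 (mesendoderm and mixed) cell barcodes.

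Before tests, 92 members (79 nuclear, 13 mt-) passed the filter on low counts in the germ layer experiment, 84 (73 and 11) in the mesendoderm experiment and 91 (78 and 13) in the mixed experiment. Cox4i2, Cox6a2, Cox7b2, Cox8b and Cox8c, isoforms best known from lung, heart, muscle or testis, were below it in all 3, and Cox8b had no UMI anywhere. The shallower mesendoderm wells also lost Ndufs1, Ndufa9, Atp5sl, Cox7a1, Ndufa4l2, Atp5s, mt-Atp8 and mt-Nd6, and the mixed wells lost Atp5s.

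The 5′ flanks of 4 nuclear members are shown because their genes carry results given below. Cox7a1 and Cox7a2 are alternative isoforms of 1 complex IV subunit. Their levels moved in opposite directions with retinoic acid in the germ layer and mixed experiments, and with Bmp in the germ layer experiment. Uqcr11, a small subunit of complex III, was called upward with Wnt in all 3 experiments (in the mixed one its direction turned with scaling by total UMIs), and Cox6a1, the widely expressed isoform of a complex IV subunit, was called downward with Wnt in the mesendoderm experiment. Each sequence is the 250 bases before the RefSeq transcription start on GRCm38.p6, written 5′ to 3′ on the gene's strand. Capitals mark matches, on either strand, to the NRF1 site and to CCGGAAG, the core of sites of the ETS factor GABP. The letters searched for NRF1 are the first capitals of the Cox6a1 sequence, which read the same on both strands, and its second capitals are the GABP core read on the other strand. The windows are chr5:115348959-115349208 (minus strand) for Cox6a1, chr7:30183921-30184170 (plus strand) for Cox7a1, chr9:79759854-79760103 (minus strand) for Cox7a2 and chr10:80406822-80407071 (minus strand) for Uqcr11.
Cox6a1: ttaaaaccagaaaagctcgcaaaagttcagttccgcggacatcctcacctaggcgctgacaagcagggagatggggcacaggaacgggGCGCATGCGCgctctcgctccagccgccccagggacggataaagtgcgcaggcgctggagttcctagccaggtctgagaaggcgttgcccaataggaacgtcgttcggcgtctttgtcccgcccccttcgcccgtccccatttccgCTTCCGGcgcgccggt
Cox7a1: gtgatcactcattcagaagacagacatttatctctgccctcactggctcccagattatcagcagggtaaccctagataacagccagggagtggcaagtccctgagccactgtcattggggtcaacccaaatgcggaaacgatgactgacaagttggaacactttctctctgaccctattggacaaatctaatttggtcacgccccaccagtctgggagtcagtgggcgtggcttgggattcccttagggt
Cox7a2: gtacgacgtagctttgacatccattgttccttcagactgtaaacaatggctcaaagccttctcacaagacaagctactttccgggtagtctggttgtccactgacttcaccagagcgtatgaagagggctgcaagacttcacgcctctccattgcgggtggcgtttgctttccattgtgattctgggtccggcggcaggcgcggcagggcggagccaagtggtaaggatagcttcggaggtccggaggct
Uqcr11: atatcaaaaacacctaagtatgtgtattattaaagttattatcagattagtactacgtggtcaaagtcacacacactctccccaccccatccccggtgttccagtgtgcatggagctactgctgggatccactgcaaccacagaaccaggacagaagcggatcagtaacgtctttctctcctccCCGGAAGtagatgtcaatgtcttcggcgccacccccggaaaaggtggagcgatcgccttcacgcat
The Cox6a1 flank holds an NRF1 match 162 bases and a GABP match 16 bases before the start, the Uqcr11 flank a GABP match 66 bases before it, and the flanks of Cox7a1 and Cox7a2 neither motif. The GENCODE annotation starts these genes earlier than RefSeq does, so that 23 (Cox6a1), 27 (Cox7a1), 25 (Cox7a2) and 9 (Uqcr11) bases of the windows lie inside the annotated gene, the GABP match of Cox6a1 among them, and 79 bases of the Cox6a1 window lie in the lincRNA Gm42903 on the other strand. Of the 84 nuclear members, 69 had a flank in the RefSeq table. The NRF1 motif was in 4 of these (5.80%), against 0.877% of 27025 genes. The GABP motif was in 12 (17.4%), against 7.83%. AAGATGGCG, a site of YY1, was in 2 (2.90%), against 0.710%, and no matches of these motifs overlapped in the flanks shown. A match describes letters and is not a binding site shown here.

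Nuclear and mt- members each took a few percent of UMIs, in a ratio that moved with the signals. In germ layer populations mt- members held 3.03% to 3.89% of UMIs (median 3.47%), nuclear members 2.91% to 3.36% (median 3.07%), and the ratio of mt- to nuclear UMIs had a median of 1.11. The median ratio was 1.61 in mesendoderm wells (1.14 to 2.26) and 2.11 in mixed wells (1.39 to 3.15). Each experiment is 1 library, so these levels across experiments cannot be told apart from the library.

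Of the signals, Bmp moved the germ layer ratio in every matched pair. It was 1.06, 1.17 and 1.32 (lowest, median, highest) in the 16 Bmp plus populations, against 1.01, 1.07 and 1.14 in the 16 Bmp minus populations, and it was higher in Bmp plus in 16 of 16 pairs of populations matched for the other signals. The share of nuclear members was lower in Bmp plus in all 16 pairs, at 2.91%, 2.99% and 3.17%, against 3.01%, 3.16% and 3.36% in Bmp minus. The share of mt- members was higher in 15 of 16 pairs. UMIs per cell were also higher in Bmp plus in 16 of 16 pairs, with a median of 17299 against 15787 in Bmp minus, and the ratio followed UMIs per cell over the 32 populations (Spearman's rho 0.60, as a description of points that share 1 library). Surface ectoderm markers (Tfap2a, Gata3, Krt8 and Krt18, each with UMIs) summed to 1046 to 2109 CPM without TMM scaling in Bmp plus, against 300.0 to 716 in Bmp minus. The part of depth and of cell types in the ratio was not tested. In the other experiments the ratio did not separate by Bmp: it was higher in Bmp plus in 24 of 61 matched conditions of the mesendoderm experiment and 15 of 31 of the mixed experiment.

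Wnt moved the germ layer ratio the other way, with 1.01, 1.07 and 1.31 in Wnt plus, against 1.01, 1.15 and 1.32 in Wnt minus, higher in Wnt plus in 2 of 16 pairs. The nuclear share was higher in Wnt plus in 16 of 16 pairs. Ribosomal protein genes, another large group of nuclear transcripts, were also higher in 16 of 16 pairs, at 26.0%, 27.4% and 29.5% of UMIs in Wnt plus, against 23.1%, 25.1% and 26.5% in Wnt minus. The median count of barcodelet reads per cell was higher in Wnt plus in 15 of 16 pairs, and the part of either in the result was not tested.

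**Figure D1:**
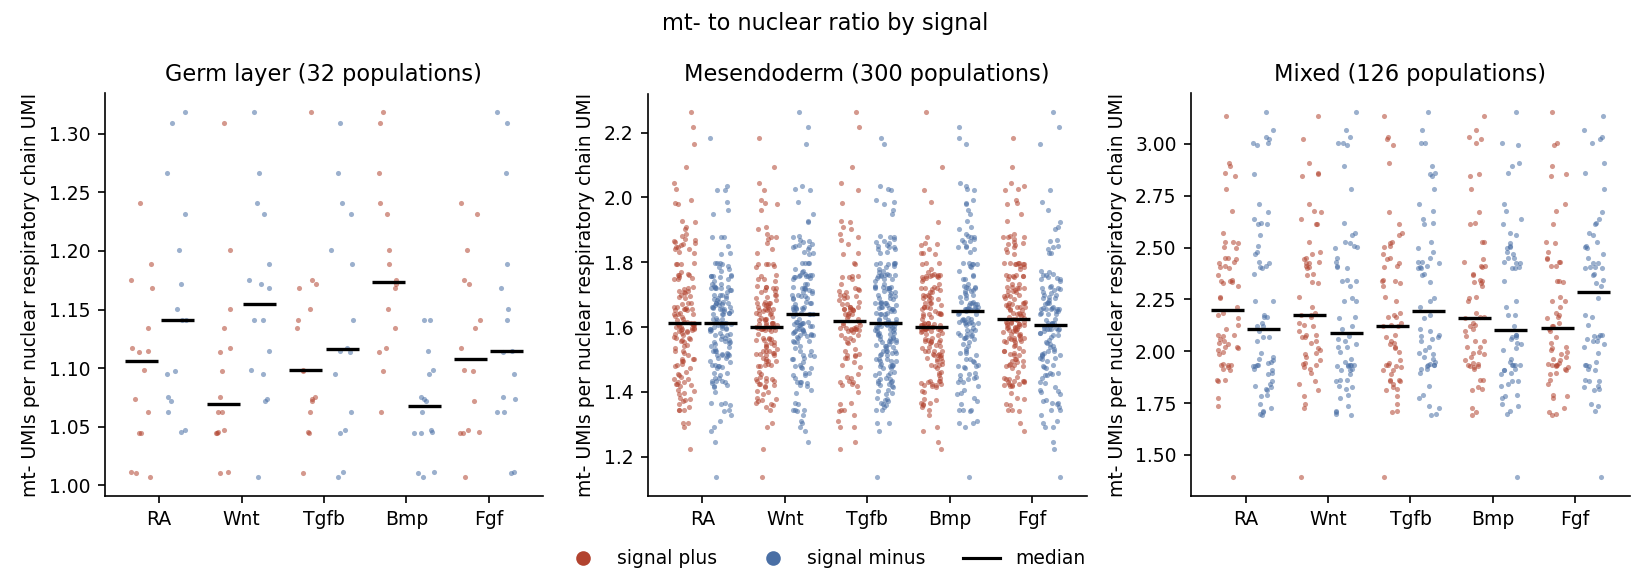
Ratio of mt- to nuclear respiratory chain UMIs (y axis, no unit) in each population or well, plus left of minus for each signal, in the germ layer (32 populations), mesendoderm (300 wells) and mixed (126 treated wells) experiments; black bars are medians. Germ layer Bmp plus populations, at 1.06 to 1.32, lie higher than Bmp minus populations, at 1.01 to 1.14, with some overlap.

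Wnt raised most nuclear members in the germ layer experiment, across complexes I, III, IV and V, and the same direction was the more frequent in the mixed experiment except with scaling by total UMIs, where it turned. In the germ layer populations 50 of 79 nuclear members rose and 1 fell (median log2 change 0.11), while 23.9% of all genes tested were called and 12.1% were called upward. With scaling by total UMIs, which shifts the median of all genes to −0.06, 30 nuclear members rose and 3 fell. The calls upward were 20 of 37 in complex I, 0 of 4 in complex II, 6 of 8 in complex III, 10 of 13 in complex IV and 14 of 17 in complex V. Of the 13 mt- members 4 rose and 1 fell.

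Among the nuclear members Cox4i1, the main isoform of the largest nuclear-coded subunit of complex IV, separated the groups fully. It had 1261, 1394 and 1533 CPM (lowest, median, highest) in the 16 Wnt plus populations, against 1080, 1144 and 1240 CPM in the 16 Wnt minus populations. The log2 change was 0.27 ± 0.02 (SE), with an adjusted p of 2.2e-12 by edgeR's quasi-likelihood test. Cox7a2l, which binds complexes III and IV into supercomplexes, had 552, 607 and 699 CPM in Wnt plus, against 416, 516 and 560 CPM in Wnt minus (log2 change 0.27 ± 0.03, adjusted p 9.46e-09). These groups overlapped at their edges. Uqcr11, whose flank is printed above, had 562, 604 and 698 CPM in Wnt plus, against 498, 539 and 592 CPM in Wnt minus (log2 change 0.16 ± 0.02, adjusted p 4.09e-06). The nuclear member that fell was Cox7a1, the heart and muscle isoform, with 5.18, 11.9 and 17.0 CPM in Wnt plus, against 8.72, 13.5 and 25.9 CPM in Wnt minus. Its log2 change was −0.41 ± 0.10 (adjusted p 0.0018), and the groups overlapped over most of their range. Of the mt- members that code complex IV subunits, mt-Co2 rose by 0.16 ± 0.02 (adjusted p 5.13e-07), with 4540, 4930 and 5606 CPM in Wnt plus, against 3848, 4424 and 5077 CPM in Wnt minus. The third of them, mt-Co3, fell by 0.07 ± 0.03 on the log2 scale (adjusted p 0.0309), with 4701, 5415 and 6589 CPM in Wnt plus, against 5149, 5911 and 6211 CPM in Wnt minus, a call lost with no filter on low counts (adjusted p 0.0627). mt-Co2 and mt-Co3, which lie on 1 strand and are known to be cut from a shared precursor RNA, carried opposite calls.

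**Figure D2:**
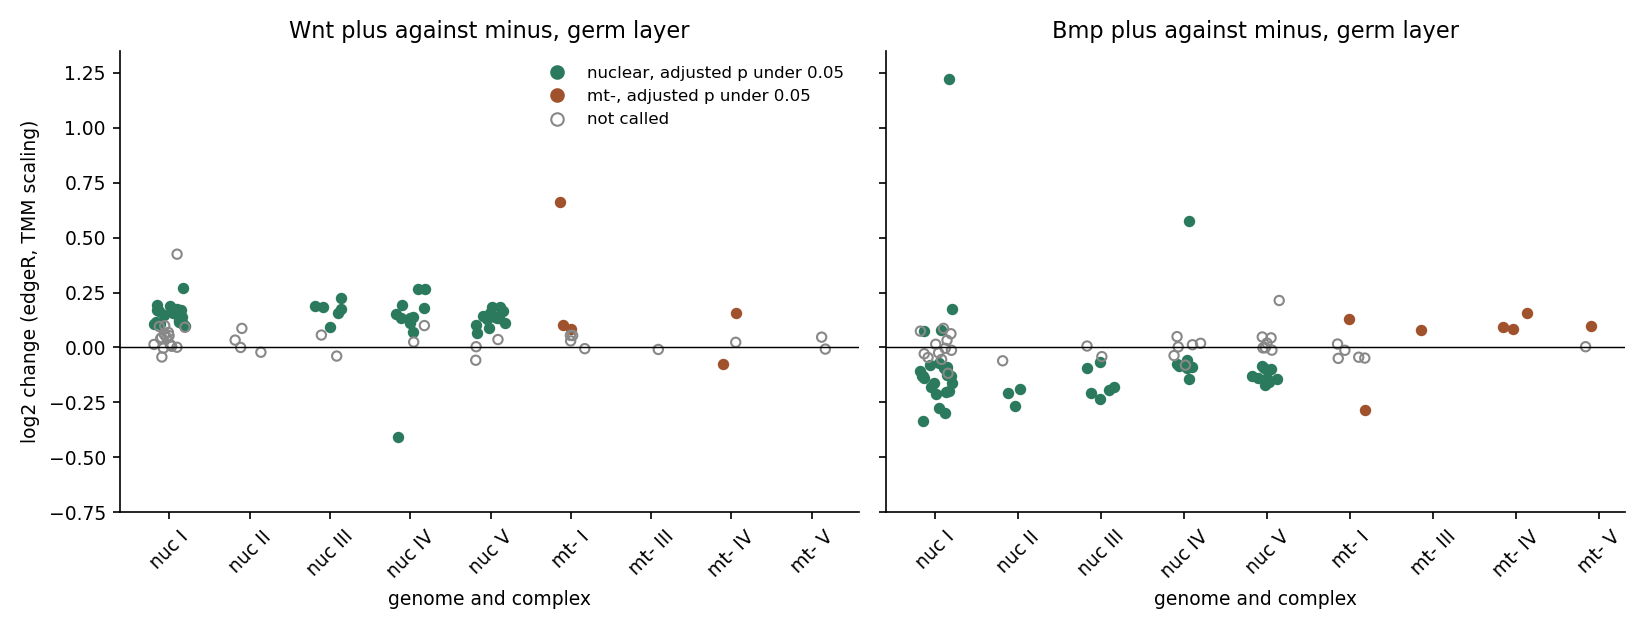
Log2 change (y axis) of each respiratory chain member with Wnt and with Bmp, plus over minus, in the germ layer experiment, with members placed by genome and complex (x axis); filled points had an adjusted p under 0.05 and open points did not. Nuclear members lie mostly above 0 with Wnt (50 rose, 1 fell; 30 and 3 with scaling by total UMIs) and mostly below 0 with Bmp (5 rose, 46 fell; 6 and 45 with scaling by total UMIs).

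In the mixed experiment 46 of 78 nuclear members rose with Wnt and 8 fell (median log2 change 0.09), and 10 of 13 mt- members rose and none fell (median 0.18), with 50.6% of all genes tested called, 23.7% upward and 27% downward. With scaling by total UMIs, under which the median of all genes was −0.16, 11 nuclear members rose and 29 fell, and 5 mt- members rose and 2 fell. The direction of the nuclear members as a group thus turned with the scaling. Their median stayed above that of all genes under both scalings. A change of scaling shifts all genes nearly alike, so this is no separate test. Cox7a2l had 413, 643 and 819 CPM in the 62 Wnt plus wells, against 294, 496 and 629 CPM in the 64 Wnt minus wells. Its log2 change was 0.39 ± 0.02 (adjusted p 9.43e-31). Cox4i1 rose by 0.26 ± 0.03 (adjusted p 3.12e-18). Cox6b2, an isoform of a complex IV subunit best known from testis, had 44.6, 152 and 262 CPM in Wnt plus, against 59.2, 114 and 172 CPM in Wnt minus. Its log2 change was 0.45 ± 0.05 (adjusted p 3.71e-13), and the ranges overlapped widely. Ndufv3, a small subunit of the NADH-oxidising arm of complex I, fell by 0.20 ± 0.04 on the log2 scale (adjusted p 2e-06), with 68.8, 142 and 206 CPM in Wnt plus, against 92.3, 167 and 251 CPM in Wnt minus, a call lost without replicate 1 (adjusted p 0.372). Among mt- members, mt-Nd2 had 1048, 1890 and 2732 CPM in Wnt plus, against 1217, 1534 and 2313 CPM in Wnt minus (log2 change 0.27 ± 0.04, adjusted p 5.13e-10), and mt-Co2 rose by 0.26 ± 0.03 (adjusted p 6.13e-11). The share of ribosomal protein genes was higher in Wnt plus in 31 of 31 matched conditions, and its part was not tested.

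Wells of the mesendoderm experiment showed fewer and mainly opposite calls. There 6 of 73 nuclear members rose with Wnt and 15 fell (median −0.02), and 2 of 11 mt- members rose and 4 fell, with 39.6% of all genes tested called, 19.9% upward and 19.6% downward, a larger share than that of the members. Total UMI scaling gave 5 nuclear rises and 24 falls. Ndufv3 had 82.6, 206 and 404 CPM in the 148 Wnt plus wells, against 139, 247 and 488 CPM in the 152 Wnt minus wells (log2 change −0.31 ± 0.04, adjusted p 1.19e-12). Cox6a1, the gene with both motifs, had 182, 402 and 659 CPM in Wnt plus, against 278, 476 and 849 CPM in Wnt minus (log2 change −0.23 ± 0.03, adjusted p 3.87e-11). Sdhc, a membrane anchor of complex II, fell by 0.30 ± 0.06 on the log2 scale (adjusted p 2.29e-05). mt-Co3 had 6103, 9012 and 14090 CPM in Wnt plus, against 6749, 10334 and 15611 CPM in Wnt minus (log2 change −0.17 ± 0.02, adjusted p 1.32e-10). Cox6b2 rose by 0.24 ± 0.06 (adjusted p 0.00113), and mt-Nd2 by 0.09 ± 0.02 (adjusted p 0.000217). Ranges of wells overlapped for each of these genes, and with wells of at least 10 cells the Sdhc and Cox6b2 calls were lost (adjusted p 0.0709 and 0.14).

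Bmp lowered most nuclear members and raised a part of the mt- members in the germ layer experiment. Of 79 nuclear members 46 fell and 5 rose (median −0.09), and of 13 mt- members 6 rose and 1 fell (median 0.02). Of all genes tested 43.1% were called, 21.5% downward and 21.6% upward. Downward calls came from every complex, with 21 of 37 nuclear members of complex I, 3 of 4 of complex II, 6 of 8 of complex III, 6 of 13 of complex IV and 10 of 17 of complex V. Total UMI scaling gave 6 nuclear calls upward and 45 downward.

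Ndufs4, an accessory subunit of complex I whose loss in mice gives a Leigh-like disease, had 119, 152 and 184 CPM in Bmp plus, against 159, 190 and 239 CPM in Bmp minus. Its log2 change was −0.33 ± 0.04 (adjusted p 1.71e-08). Ndufc2, another accessory subunit of complex I, had 206, 237 and 278 CPM in Bmp plus, against 260, 292 and 326 CPM in Bmp minus (log2 change −0.30 ± 0.03, adjusted p 6.44e-10). The ranges overlapped in part for both genes, and each Bmp plus median lay below the lowest Bmp minus population. Ndufv1, which binds NADH, had 70.3, 89.5 and 96.6 CPM in Bmp plus, against 79.4, 106 and 125 CPM in Bmp minus (log2 change −0.28 ± 0.04, adjusted p 4.33e-06). Ndufa3 was called upward, with 163, 188 and 218 CPM in Bmp plus, against 140, 166 and 209 CPM in Bmp minus (adjusted p 3.34e-05).

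The mt- members that rose with Bmp included all 3 complex IV genes. mt-Co1 had 4060, 4395 and 5099 CPM in Bmp plus, against 3548, 3921 and 4575 CPM in Bmp minus (log2 change 0.16 ± 0.02, adjusted p 2.42e-06). mt-Nd4, a complex I subunit, had 1861, 1987 and 2400 CPM in Bmp plus, against 1649, 1823 and 2012 CPM in Bmp minus (log2 change 0.13 ± 0.02, adjusted p 1.93e-05). mt-Atp6, the proton channel subunit of complex V, rose by 0.10 ± 0.02 (adjusted p 0.000646), a call lost with depth as a covariate (0.06, adjusted p 0.152). The mt- member that fell was mt-Nd6, described below.

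In the mesendoderm experiment mt- members went down with Bmp together with nuclear members, and 6 of the mt- members carried calls in opposite directions in at least one pair of experiments. There 23 of 73 nuclear members fell and 1 rose (median −0.05), and 9 of 11 mt- members fell and none rose (median −0.08), with 29.3% of all genes tested called and 15.9% called downward. Under total UMI scaling the nuclear calls were 4 upward and 9 downward and the mt- calls 5 downward. Cox7a2, the widely expressed isoform of the Cox7a subunit, had 486, 697 and 1227 CPM in the 157 Bmp plus wells, against 499, 814 and 1444 CPM in the 143 Bmp minus wells (log2 change −0.25 ± 0.03, adjusted p 1.15e-14). mt-Nd2 had 894, 1534 and 2360 CPM in Bmp plus, against 963, 1694 and 2404 CPM in Bmp minus (log2 change −0.13 ± 0.02, adjusted p 2.46e-07). Ndufs4 fell by 0.21 ± 0.05 on the log2 scale (adjusted p 0.000194). The nuclear member that rose was Atp5f1, in the stator of the ATP synthase, by 0.08 ± 0.03 (adjusted p 0.0236), a call lost without replicate 1 (adjusted p 0.0643) or 2 (adjusted p 0.194). Mixed wells showed other counts: 6 of 78 nuclear members rose with Bmp and 8 fell, and no mt- member was called, with 17.5% of all genes tested called, 9.11% upward and 8.39% downward. Those counts were 3 and 13 with scaling by total UMIs. Ndufs4 fell there too, by 0.14 ± 0.04 on the log2 scale (adjusted p 0.0168), a call lost without replicate 2 (adjusted p 0.396). Members called numbered 21 in place of 33 without replicate 3 of the mesendoderm experiment, and 4 or 3 in place of 14 without replicate 1 or 2 of the mixed experiment.

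Retinoic acid lowered 9 of 13 mt- members in the germ layer experiment and raised none, and split the nuclear members. With depth as a covariate 5 mt- members fell and 19 members were called in place of 37, and with populations of at least 100 cells 4 mt- members fell and 17 members were called. The median log2 change of the mt- members was −0.07, and of 79 nuclear members 12 rose and 16 fell (median 0.02), with 27.7% of all genes tested called and 13.6% called downward. mt-Nd1, a complex I subunit, had 3636, 4037 and 4374 CPM in the 16 RA plus populations, against 4161, 4474 and 4755 CPM in the 16 RA minus populations. Its log2 change was −0.15 ± 0.02 (adjusted p 9.32e-08). Also, mt-Nd3 fell by 0.14 ± 0.03 on the log2 scale (adjusted p 0.000283) and mt-Co2 by 0.10 ± 0.02 (adjusted p 0.000269). Of the nuclear members Atp5l, the g subunit of the ATP synthase, had 576, 666 and 749 CPM in RA plus, against 714, 775 and 859 CPM in RA minus (log2 change −0.24 ± 0.03, adjusted p 8.73e-08). Uqcr10, a small subunit of complex III, had 507, 569 and 602 CPM in RA plus, against 579, 629 and 697 CPM in RA minus (log2 change −0.18 ± 0.03, adjusted p 7.03e-06). UMIs per cell were higher in RA plus in 2 of 16 matched pairs, and pluripotency markers summed to 146, 387 and 698 CPM without TMM scaling in RA plus, against 279, 755 and 1487 in RA minus. The part of the pluripotency markers in the mt- calls was not tested.

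In the mesendoderm experiment 9 of 73 nuclear members rose with retinoic acid and 6 fell, and 2 of 11 mt- members rose, with 21.9% of all genes tested called, 11.6% upward and 10.3% downward. Cox7a2 had 499, 721 and 980 CPM in the 146 RA plus wells, against 486, 784 and 1444 CPM in the 154 RA minus wells (log2 change −0.21 ± 0.03, adjusted p 5.16e-11). Ndufs8, an iron-sulphur subunit of complex I, rose by 0.20 (adjusted p 0.00216). Among mixed wells 18 of 78 nuclear members rose and 20 fell, and 1 mt- member rose and 1 fell, with 44.8% of all genes tested called. The nuclear calls were 14 upward and 24 downward with scaling by total UMIs. Ndufb10 of complex I had 110, 153 and 212 CPM in the 62 RA plus wells, against 82.8, 130 and 199 CPM in the 64 RA minus wells (log2 change 0.25 ± 0.03, adjusted p 1.03e-10). Sdhd, the other membrane anchor of complex II, fell by 0.19 ± 0.04 on the log2 scale (adjusted p 5.35e-05), a call lost without replicate 1 (adjusted p 0.0805). Members called numbered 11 in place of 17 without replicate 1 or without replicate 2 of the mesendoderm experiment, and 22 in place of 40 without replicate 1 of the mixed experiment.

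Calls with Fgf were mainly downward in each experiment, but for the mesendoderm experiment this rested on the filter on low counts, and for nuclear members of the mixed experiment the direction turned with scaling by total UMIs. In the germ layer experiment 1 of 79 nuclear members rose and 5 fell, and 3 of 13 mt- members fell, with 7.93% of all genes tested called, 4.58% upward and 3.35% downward. Cox7c, a small complex IV subunit, was the one that rose, with 1459, 1614 and 1784 CPM in the 16 Fgf plus populations, against 1373, 1502 and 1653 CPM in the 16 Fgf minus populations (log2 change 0.10 ± 0.02, adjusted p 0.00511). In the mesendoderm experiment 18 of 73 nuclear members and 3 of 11 mt- members fell and none rose, with 9.28% of all genes tested called, 3.78% upward and 5.5% downward. With no filter, where the median of all genes was 0.04, none of these falls was called and 3 mt- members were called upward, and with wells of at least 10 cells 0 members were called. Ndufb11 of complex I had 124, 240 and 418 CPM in the 168 Fgf plus wells, against 139, 277 and 520 CPM in the 132 Fgf minus wells (log2 change −0.19 ± 0.04, adjusted p 0.000141), a call lost with no filter (adjusted p 0.0844) and with wells of at least 10 cells (adjusted p 0.776). Among mixed wells 3 of 78 nuclear members rose and 19 fell, and 4 of 13 mt- members fell, with 22.5% of all genes tested called. With scaling by total UMIs 12 nuclear members rose and 7 fell, while mt- members gave 2 downward calls and none upward. mt-Co3 had 6660, 8624 and 10703 CPM in the 64 Fgf plus wells, against 7388, 9791 and 13679 CPM in the 62 Fgf minus wells (log2 change −0.19 ± 0.03, adjusted p 3.08e-08). Ndufa6 of complex I fell by 0.20 ± 0.03 on the log2 scale (adjusted p 1.84e-09) and Ndufa12 rose by 0.15 ± 0.03 (adjusted p 1.71e-05). Members called numbered 8, 12 and 11 in place of 21 without replicates 1, 2 and 4 of the mesendoderm experiment, each left out in turn, and 15 in place of 26 without replicate 1 of the mixed experiment.

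Tgfb, Notch and Shh called few members. With Tgfb, 4 nuclear members rose in the germ layer experiment (of all genes tested 7.02% called, 4.07% upward and 2.95% downward), 2 nuclear and 1 mt- members in the mesendoderm experiment (10.1%, 5.5% upward and 4.6% downward) and 8 nuclear members in the mixed experiment (11.6%, 6.57% upward and 4.99% downward), and none fell. The germ layer calls included Ndufs4, which rose by 0.13 ± 0.04 (adjusted p 0.0317), a call lost with depth as a covariate (adjusted p 0.106). Notch called 1 member, mt-Co2, which rose by 0.06 ± 0.02 (adjusted p 0.0374), with 1.16% of all genes tested called, 0.172% upward and 0.988% downward, and this call was lost without replicate 1, 2 or 4. The Tgfb calls of the mesendoderm experiment numbered 0 without replicate 1, 2 or 4 and 6 without replicate 3, in place of 3, and those of the mixed experiment 1 or 5 in place of 8 without replicate 1 or 2. Shh called no member in edgeR's quasi-likelihood test, with 0.043% of all genes tested called, while 10 members had an unadjusted p under 0.05.

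**Figure D3:**
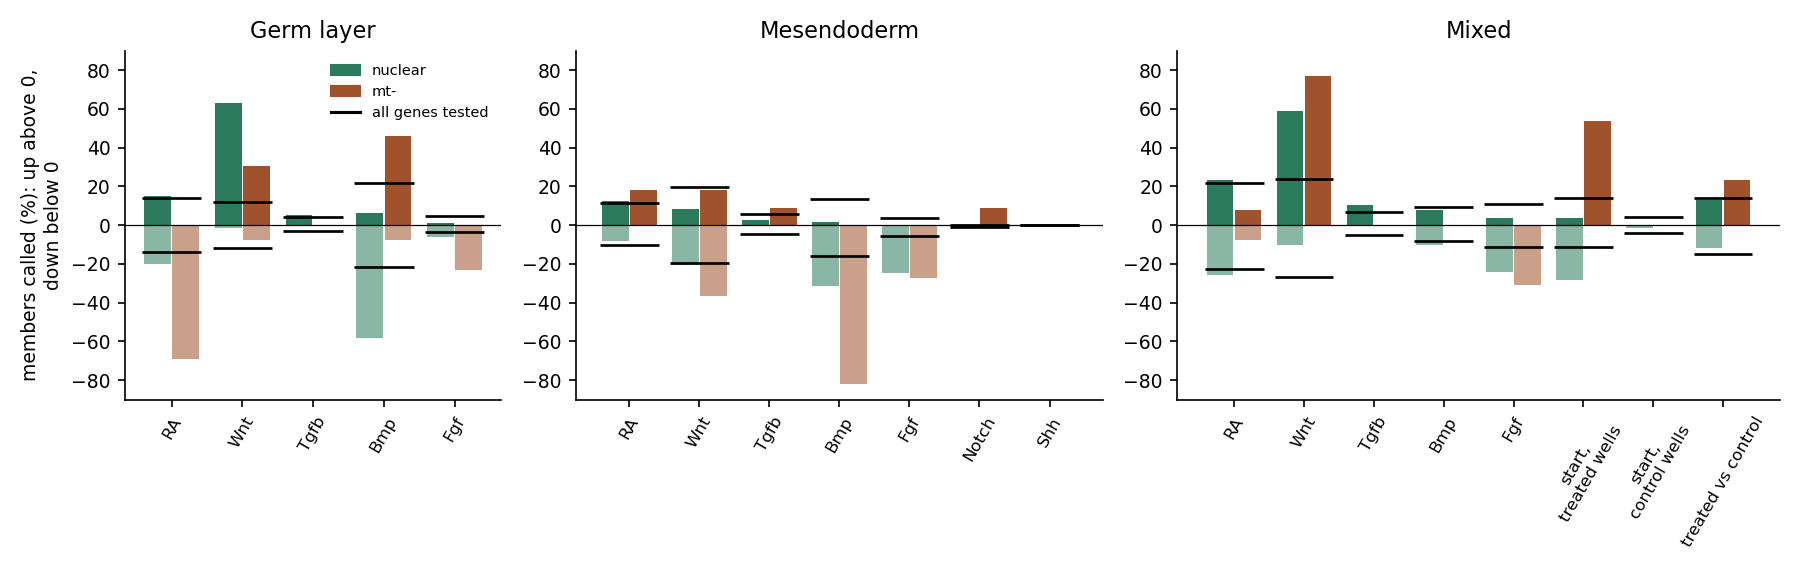
Percent of the nuclear and mt- members tested (y axis) that were called upward (above 0) or downward (below 0) in each comparison of the 3 experiments, plus over minus, mesendoderm over undirected start and treated over control wells; black lines give the same for all genes tested. Nuclear members exceed the line of all genes most with Wnt upward in the germ layer experiment (50 of 79) and Bmp downward there (46 of 79); with scaling by total UMIs the mixed Wnt and Fgf counts of nuclear members turn direction.

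mt-Nd6, a complex I subunit, had the largest rise of the mt- members with Wnt. It is the only mt- member on the minus strand (M:13552-14070 on GRCm38), where its 3′ end overlaps that of mt-Nd5 (M:11742-13565, plus strand) over M:13552-13565. In the germ layer experiment it had 20.1, 33.4 and 47.4 CPM in Wnt plus, against 15.8, 21.0 and 26.7 CPM in Wnt minus. The log2 change was 0.66 ± 0.08 (adjusted p 1.89e-07), and its percent of all mt- UMIs was higher in Wnt plus in 16 of 16 matched pairs. Mixed wells gave it 9.78, 34.6 and 78.3 CPM in the 62 Wnt plus wells, against 7.36, 17.9 and 45.7 CPM in the 64 Wnt minus wells (log2 change 0.89 ± 0.09, adjusted p 2.33e-17). Its percent of mt- UMIs was higher there in 29 of 31 matched conditions. In mesendoderm wells mt-Nd6 was below the filter and was not tested, and its percent of mt- UMIs was higher in Wnt plus in 51 of 61 matched conditions, with a median of 0.0775% in Wnt plus, against 0.0528% in Wnt minus.

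mt-Nd6 also moved with Bmp and with the start. With Bmp in the germ layer experiment it had 15.8, 23.4 and 39.3 CPM in Bmp plus, against 19.7, 27.1 and 47.4 CPM in Bmp minus (log2 change −0.29 ± 0.08, adjusted p 0.00539), while 6 other mt- members rose. With depth as a covariate this mt-Nd6 call was lost (−0.17, adjusted p 0.278). In treated wells of the mixed experiment it had 11.4, 29.0 and 78.3 CPM with the mesendoderm start, which includes the GSK3 inhibitor, against 7.36, 17.6 and 65.7 CPM with the undirected start (log2 change 0.59 ± 0.09, adjusted p 1.32e-08). In control wells it had 18.7, 29.2 and 40.2 CPM with the mesendoderm start, against 6.70, 17.9 and 27.4 CPM with the undirected start (log2 change 0.60 ± 0.21, adjusted p 0.0512), which missed the threshold. The sources used here do not say whether counting was by strand, so reads of mt-Nd6 and of antisense RNA from that locus may not be separated.

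Of 16 nuclear genes tested that act on mitochondrial DNA and RNA, 3 rose and 1 fell with Wnt in the germ layer experiment. There 12.1% of all genes tested rose and 11.9% fell. Among those that rose was Grsf1, an RNA-binding protein of mitochondrial RNA granules. It had 97.9, 344 and 622 CPM without TMM scaling in germ layer Wnt plus populations, against 53.7, 82.9 and 113 in Wnt minus (log2 change 1.91 ± 0.16, adjusted p 2.45e-11). With Wnt its log2 change was 1.34 ± 0.06 in the mesendoderm experiment (adjusted p 4.24e-61) and 1.91 ± 0.06 in the mixed experiment (adjusted p 2.11e-68). It was also higher in the mixed experiment with the mesendoderm start, by 0.59 ± 0.06 in treated wells (adjusted p 2.8e-16) and 1.27 ± 0.16 in control wells (adjusted p 9.43e-11). Its part in the mt-Nd6 values was not tested.

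**Figure D4:**
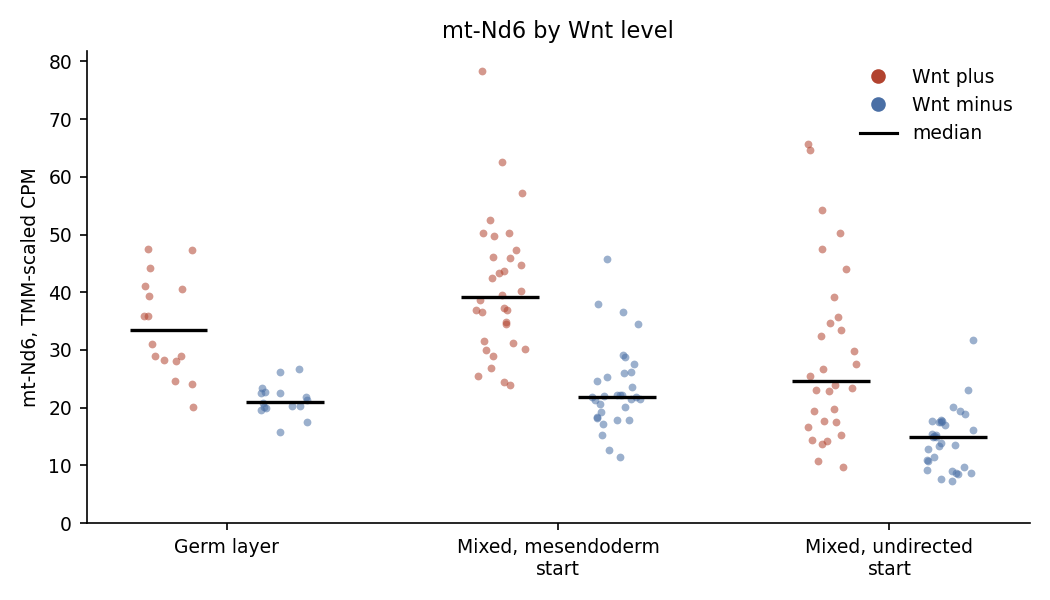
Level of mt-Nd6 (y axis, TMM-scaled CPM) in each population or well, Wnt plus left of Wnt minus, in the germ layer experiment and in the mixed experiment with the mesendoderm and the undirected start; black bars are medians. Wnt plus medians lie above Wnt minus medians in each panel, and in the germ layer experiment Wnt plus runs over 20.1 to 47.4 CPM and Wnt minus over 15.8 to 26.7 CPM.

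Alternative isoforms gave the largest log2 changes of called nuclear members with retinoic acid and with Bmp in the germ layer and mixed experiments. These log2 changes rest on few UMIs. All germ layer populations together held 567 UMIs of Ndufa4l2 and 995 of Cox7a1, and all mixed wells 1949 and 1470. Ndufa4l2 (chr10:127514967-127517154, plus strand), known as a hypoxia-inducible paralogue of Ndufa4, rose with retinoic acid and with Bmp. It had 2.39, 13.5 and 24.2 CPM in germ layer RA plus populations, against 0, 2.20 and 7.18 CPM in RA minus (log2 change 2.08 ± 0.26, adjusted p 1.55e-07). For Bmp it had 0.66, 8.82 and 24.2 CPM in Bmp plus, against 0, 3.34 and 17.9 CPM in Bmp minus (log2 change 1.22 ± 0.24, adjusted p 0.000107). The 8 populations with both signals had 13.3, 19.1 and 24.2 CPM. Those with RA plus and Bmp minus had 2.39, 4.31 and 17.9 CPM, those with RA minus and Bmp plus 0.66, 2.20 and 4.37 CPM, and those with neither 0, 2.71 and 7.18 CPM. All 8 populations with both signals thus lay above every population without retinoic acid.

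In the mixed experiment Ndufa4l2 had 0, 21.4 and 150.2 CPM in RA plus wells, against 0, 6.90 and 49.2 CPM in RA minus wells (log2 change 1.67 ± 0.17, adjusted p 4.81e-16). It also rose with Bmp, by 1.06 ± 0.16 (adjusted p 5.48e-08), and with Tgfb, by 0.58 ± 0.16 (adjusted p 0.00636), and it fell with Wnt, by 0.88 ± 0.18 on the log2 scale (adjusted p 1.52e-05). The retinoic acid and Wnt changes differed between starts. With the mesendoderm start it had 2.38, 18.0 and 71.0 CPM in 32 RA plus wells, against 1.71, 7.79 and 49.2 CPM in 32 RA minus wells. With the undirected start it had 0, 25.8 and 150.2 CPM in 30 RA plus wells, against 0, 5.59 and 32.1 CPM in 32 RA minus wells, and the effect with the mesendoderm start minus that with the undirected start was −1.33 ± 0.36 (adjusted p 0.0122), with 5.68% of all genes tested called. With the mesendoderm start it had a median of 12.3 CPM in Wnt plus wells, against 10.7 CPM in Wnt minus wells. With the undirected start the medians were 5.16 CPM in Wnt plus and 22.1 CPM in Wnt minus, and the effects differed by 1.22 ± 0.37 (adjusted p 0.0221), with 7.77% of all genes tested called. Both calls of a difference between starts, and the Tgfb call, were lost when either replicate was left out (adjusted p 0.0626 to 0.632).

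Cox7a1 (chr7:30184144-30186078, plus strand) and Cox7a2 (chr9:79755361-79759878, minus strand) moved apart with Bmp in the germ layer experiment. They also did so with retinoic acid in the germ layer and mixed experiments. Cox7a1 was not tested in the mesendoderm experiment and was not called with Bmp in the mixed one. For Bmp in the germ layer experiment Cox7a1 had 9.58, 15.9 and 25.9 CPM in Bmp plus, against 5.18, 10.8 and 15.9 CPM in Bmp minus (log2 change 0.57 ± 0.10, adjusted p 1.29e-05). Cox7a2 had 611, 675 and 773 CPM in Bmp plus, against 631, 698 and 850 CPM in Bmp minus (log2 change −0.08 ± 0.02, adjusted p 0.0037). The share of Cox7a1 in the summed UMIs of Cox7a1, Cox7a2 and Cox7a2l was higher in Bmp plus in 15 of 16 matched pairs.

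For retinoic acid Cox7a1 had 9.51, 13.5 and 25.9 CPM in germ layer RA plus populations, against 5.18, 11.3 and 24.0 CPM in RA minus (log2 change 0.28 ± 0.10, adjusted p 0.0322), and Cox7a2 had 611, 667 and 759 CPM in RA plus, against 644, 699 and 850 CPM in RA minus (log2 change −0.11 ± 0.02, adjusted p 0.000551). In the mixed experiment the Cox7a1 values were 3.63, 17.8 and 65.7 CPM in RA plus wells, against 0, 10.5 and 33.0 CPM in RA minus wells (log2 change 0.93 ± 0.10, adjusted p 2.18e-15), and its share was higher in 30 of 31 matched conditions. Cox7a2 there had 403, 577 and 769 CPM in RA plus, against 428, 657 and 899 CPM in RA minus (log2 change −0.17 ± 0.03, adjusted p 1.02e-07). Cox7a1 fell with Wnt by 0.30 ± 0.10 on the log2 scale (adjusted p 0.00799). With Fgf it had 0, 10.5 and 39.1 CPM in Fgf plus wells, against 1.61, 15.7 and 65.7 CPM in Fgf minus wells (log2 change −0.57 ± 0.10, adjusted p 8.43e-07). Ranges overlapped in each of these comparisons. The retinoic acid call of Cox7a1 in the germ layer experiment was lost with DESeq2 (adjusted p 0.069) and with populations of at least 100 cells (adjusted p 0.57), and its Wnt call in the mixed experiment without replicate 1 (adjusted p 0.614).

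**Figure D5:**
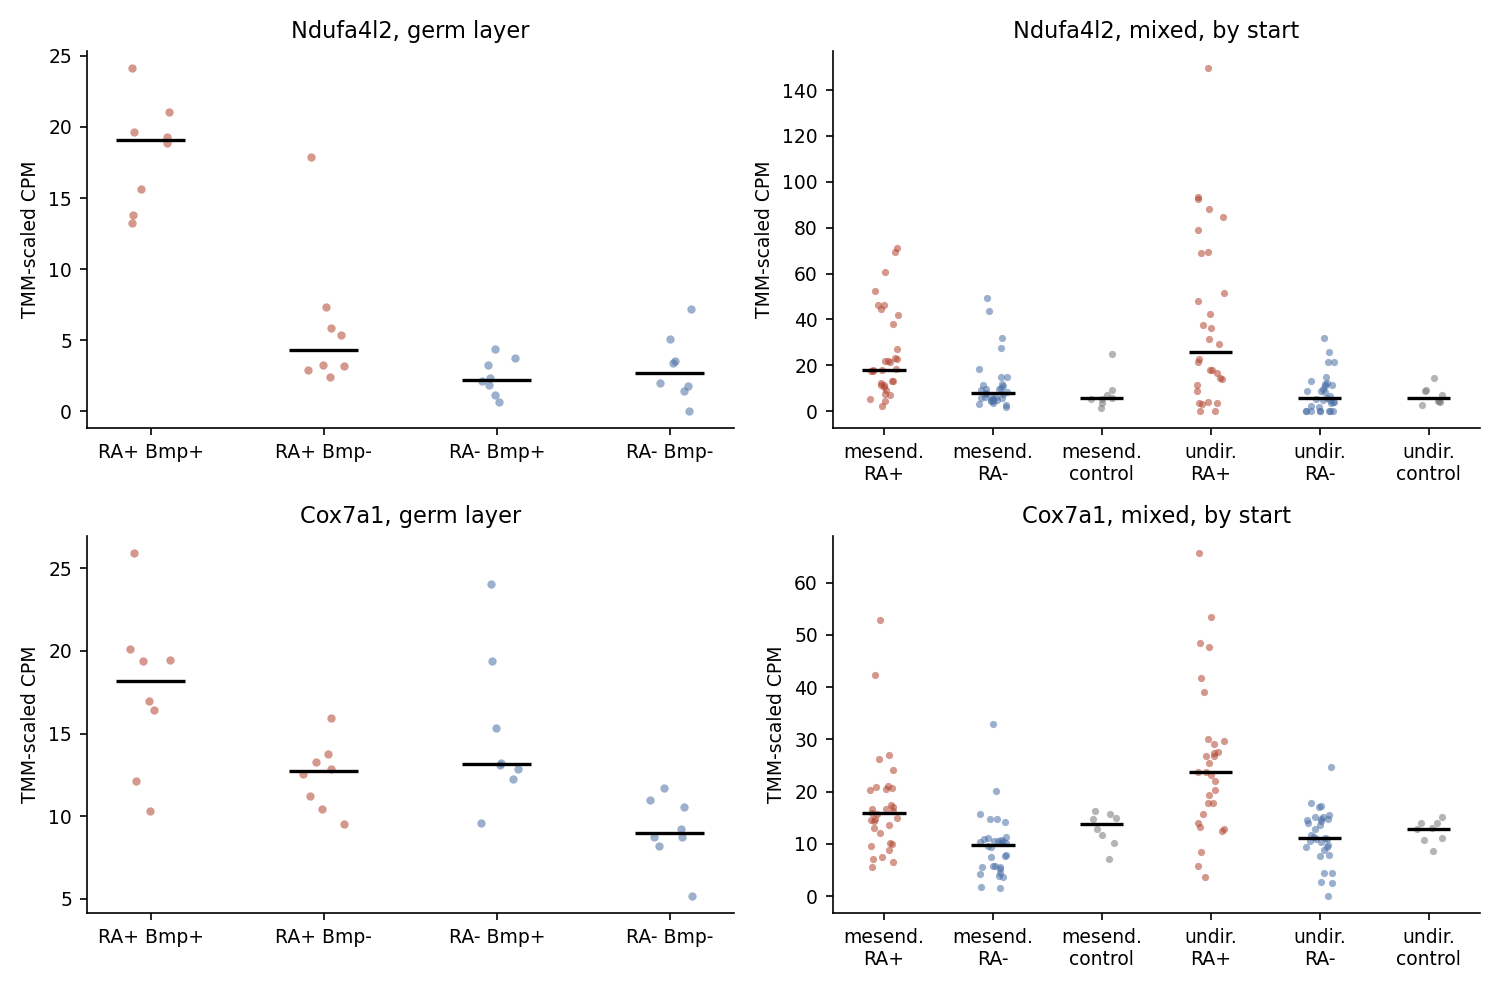
Levels of Ndufa4l2 and Cox7a1 (y axes, TMM-scaled CPM) in each population of the germ layer experiment by retinoic acid and Bmp level, and in each well of the mixed experiment by start and retinoic acid level with control wells last; black bars are medians. Germ layer populations with RA plus and Bmp plus have the highest medians, 19.1 CPM for Ndufa4l2 and 18.2 CPM for Cox7a1.

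In the mixed experiment the ratio of mt- to nuclear respiratory chain UMIs was higher with the mesendoderm start in most matched treated conditions. The ratio of mt- to nuclear UMIs was 1.81, 2.33 and 3.15 in 64 treated mesendoderm-start wells, against 1.39, 2.01 and 3.13 in 62 treated undirected-start wells, and it was higher with the mesendoderm start in 28 of 31 matched conditions. Replicate sets were marked by a barcodelet and numbered within each start, so a shared number does not link wells of different starts. The start comparison thus rests on 2 sets of each start. In set 1 the medians were 2.06 with the mesendoderm start and 1.92 with the undirected start, and in set 2 they were 2.59 and 2.37. The undirected median of set 2 thus lay above the mesendoderm median of set 1. A difference between starts therefore cannot be told apart from one between sets. The ratio was higher in set 2 than in set 1 in 58 of 63 matched conditions, and UMIs per cell were higher in set 2 in 56 of 63. The ratio in control wells overlapped, at 1.85, 2.02 and 2.5 in 8 mesendoderm-start wells, against 1.46, 1.92 and 2.33 in 8 undirected-start wells. Barcodelet counts and the ribosomal protein share were each higher with the mesendoderm start in 27 of 31 matched conditions, and over the 142 wells the nuclear share ran against both (Spearman's rho −0.64 and −0.56, as a description of wells of 1 library). Their part in the start difference was not tested.

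In treated wells 22 of 78 nuclear members were lower with the mesendoderm start and 3 higher, and 7 of 13 mt- members were higher and none lower (median log2 difference −0.05 and 0.14), with 25.6% of all genes tested called. With scaling by total UMIs 38 nuclear members were lower and 2 higher, and 6 mt- members were higher. mt-Co2 had 5628, 7365 and 10239 CPM with the mesendoderm start, against 4563, 6319 and 9813 CPM with the undirected start (log2 difference 0.19 ± 0.03, adjusted p 2.52e-06). Ndufa11 of complex I was lower by −0.19 ± 0.03 (adjusted p 3.65e-06), as was Sdhb, the iron-sulphur subunit of complex II, by −0.19 ± 0.04 (adjusted p 0.000284). Cox7a2l was higher by 0.18 ± 0.03 (adjusted p 1.88e-09). In control wells 1 member passed edgeR's quasi-likelihood test, with 8.57% of all genes tested called and 15 members at an unadjusted p under 0.05. This was Uqcr11, with 426, 451 and 480 CPM in mesendoderm-start control wells, against 473, 517 and 599 CPM in undirected-start control wells (log2 difference −0.23 ± 0.07, adjusted p 0.018), and it was lower in treated wells too, by −0.13 ± 0.03 (adjusted p 4.49e-05). The control well call was lost without replicate 1 (adjusted p 0.0505) or 2 (adjusted p 0.383), and other settings called 0 to 5 members there, mt- members among them. In treated wells without replicate 2, 15 members were called in place of 32, with 5 nuclear members lower and 4 higher and 6 mt- members higher, so the direction of the nuclear members was not kept, and the calls of Ndufa11, Sdhb and Uqcr11 were lost (adjusted p 0.195, 0.141 and 0.452).

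Treated wells differed from control wells in 19 nuclear members, 10 higher and 9 lower, and in 3 mt- members, all higher, with 29.2% of all genes tested called. Scaling by total UMIs gave 7 higher and 22 lower nuclear members. Of complex III, Uqcrc2, a core protein, was higher by 0.25 ± 0.07 (adjusted p 0.00403, lost without replicate 1 or 2 at 0.12 and 0.0567) and Uqcr10 was lower by −0.22 ± 0.03 (adjusted p 5.05e-08). Ndufa4l2 was higher in treated wells by 0.96 ± 0.28 (adjusted p 0.00537), a call lost without replicate 1 (adjusted p 0.183). These counts changed with the replicate left out: without replicate 1 there were 1 nuclear member higher and 10 lower and 6 mt- members higher, and without replicate 2 there were 6 nuclear members higher, 2 lower and 0 mt- members. Signal effects differed between starts for few members. The retinoic acid effect differed for Cox8a (0.14, adjusted p 0.0331) and the Wnt effect for Cox5b (−0.16, adjusted p 0.0342) and Ndufa12 (−0.19, adjusted p 0.0255), beside Ndufa4l2, and without replicate 1 or 2 the Cox8a and Cox5b calls, and without replicate 2 the Ndufa12 call, were lost. For Tgfb, Bmp and Fgf no member passed edgeR's quasi-likelihood test of the difference between starts, with 0%, 0.193% and 1.47% of all genes tested called and 7, 4 and 6 members at an unadjusted p under 0.05.

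Of 73 nuclear and 11 mt- members tested in all 3 experiments, few were called in 1 direction in each. Of all 2323 genes tested in the 3 experiments, 4.26% rose in each with retinoic acid and 4.86% fell, 10.6% and 7.02% with Wnt, 4.86% and 3.7% with Bmp, and 1.64% and 1.03% with Fgf. Of the 73 nuclear members 2.74% rose and 5.48% fell with retinoic acid, 5.48% and 0% with Wnt, 0% and 5.48% with Bmp, and 0% and 2.74% with Fgf. The retinoic acid shares were thus near those of all genes, and the upward Wnt share was lower. With retinoic acid Cox5b and Ndufs8 rose and Atp5b, Atp5l, Cox7a2 and Ndufs4 fell. Ndufs4, for example, had log2 changes of −0.18 (germ layer), −0.19 (mesendoderm) and −0.19 (mixed). With Wnt Cox4i1, Cox7a2l, Ndufa10, Uqcr11 and mt-Nd2 rose, Uqcr11 by 0.16, 0.09 and 0.10 in that order (−0.04 in the mixed experiment with scaling by total UMIs), and 39 of 78 nuclear members (50.0%) rose in both the germ layer and the mixed experiment, against 10.1% of all genes tested in both. This share of 50.0% depends on TMM scaling. Scaled by total UMIs, 30 nuclear members rose and 3 fell in the germ layer experiment, and 11 rose and 29 fell in the mixed one. With Bmp Atp5j2, Cox7a2, Ndufa13 and Ndufs4 fell, Ndufs4 by 0.33, 0.21 and 0.14 on the log2 scale. With Fgf Cox7a2l, Ndufa3, mt-Co3 and mt-Nd4 fell, mt-Co3 by 0.09, 0.11 and 0.19. Calls in opposite directions were given to 11 nuclear and 2 mt- members with Wnt and to 3 nuclear and 6 mt- members with Bmp, against 3.4% of all genes with Wnt and 5.85% with Bmp. Ndufs4, in the peripheral arm of complex I, and Cox7a2 were the members called downward in all 3 experiments with both retinoic acid and Bmp. The share of all genes called so with both signals was not taken, so this overlap is a description only. Not each of these calls held when 1 replicate was left out: among those lost were Cox5b (retinoic acid), Cox4i1 (Wnt) and Ndufa3 (Fgf) of the mesendoderm experiment, Uqcr11 (Wnt, without replicate 2) and Ndufs4 (retinoic acid without replicate 1, adjusted p 0.319) of the mixed experiment, and Atp5j2 (Bmp) of both.

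Genes around the respiratory chain were read from lists of glycolysis, the TCA cycle, assembly factors, carriers and factors of mitochondrial DNA. In the germ layer experiment 10 of 16 glycolysis genes fell with Bmp and 1 rose, with Eno1, an enolase, at a log2 change of −0.41 and Slc2a3, a glucose transporter, at 1.28. There 21.5% of all genes tested fell. The other experiments did not share this direction throughout, as 5 of 11 glycolysis genes rose with Bmp and none fell in the mesendoderm experiment (13.4% of all genes rose), while 2 of 14 rose and 5 fell in the mixed experiment (8.39% of all genes fell). The TCA cycle gave 9 falls and 3 rises of 19 with Bmp in the germ layer experiment and factors of mitochondrial DNA 7 falls and 1 rise of 16, while complex I assembly factors, at 3 falls of 13, were near the share of all genes. Polg, the mitochondrial DNA polymerase, rose with Bmp by 0.85 ± 0.11 (adjusted p 2.01e-07), fell with Wnt by 0.59 ± 0.11 on the log2 scale (adjusted p 0.000133) and fell with retinoic acid by 0.81 ± 0.11 (adjusted p 1.18e-06). With Wnt 6 of 19 TCA cycle genes rose in the germ layer experiment and none fell, and 5 of 16 glycolysis genes rose and 2 fell (12.1% of all genes rose). The mesendoderm experiment gave 2 rises and 2 falls of 9 TCA cycle genes and 5 falls of 11 glycolysis genes with no rise (19.6% of all genes fell). The mixed experiment gave 5 rises and 6 falls of 19 TCA cycle genes and 7 rises and 4 falls of 14 glycolysis genes (23.7% of all genes rose and 27% fell). With retinoic acid 8 of 16 glycolysis genes fell and 1 rose in the germ layer experiment (13.6% of all genes fell), 5 of 11 fell and 1 rose in the mesendoderm experiment (10.3%), and 10 of 14 fell and 1 rose in the mixed experiment (22.8%). In the germ layer and mixed experiments Ldha, lactate dehydrogenase A, was at −0.37 and −0.55. With Fgf 5 of 16 glycolysis genes rose in the germ layer experiment, 5 of 11 in the mesendoderm experiment and 9 of 14 in the mixed experiment, where 2 fell (4.58%, 3.78% and 11.1% of all genes rose), with Ldha at 0.28 and 0.43 in the germ layer and mixed experiments.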

How the data were processed

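RNA was measured in single mouse embryonic stem cells by 10x Chromium libraries, 1 per experiment. The deposited values are UMI counts per gene and cell, made by the authors with no normalization, and the deposited assignment of cells to conditions was used as given. Doublets were not called here, and cells were left out only by that assignment or in sums that were too small. Per the submitters' processing notes the build was mm10 and the tools included HTSeq 0.9.1, STAR 2.5.2b and Cell Ranger 1.3.1, and the sources used here do not say how counting treated strand. Counts of assigned cells were summed per condition or well, keeping sums of at least 5 cells. Shallow sums give wide spread, so mesendoderm wells (median 7 cells) are less precise than mixed wells (31) and germ layer populations (131). edgeR 4.0.16 in R 4.3.3 (filterByExpr, TMM, quasi-likelihood test, two-sided) fitted all signals of an experiment in 1 additive model over 10614, 2328 and 8791 genes, with products of start and signal and terms for control wells in the mixed experiment. Benjamini-Hochberg adjustment ran over all genes tested, with a threshold of 0.05. The spread is that between wells or conditions of a library, and nothing says that these came from separate cultures, so p-values may measure technical spread. The model was tested on simulated data.

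Named members had an adjusted p under 0.05 and a mean of at least 10 CPM and were the 3 largest rises and falls per genome, with mt- members and isoform pairs named whatever their values, and an item that this rule would name is not reported here. Uqcr11 in the Wnt and start comparisons, and members called in all 3 experiments, were named after their values were seen. Of each pathway list the 2 genes with the smallest adjusted p could be named. The members and lists were chosen with earlier results of these data known. Flanks are from RefSeq on GRCm38.p6, searched on both strands over 250 bases. Alternatives were DESeq2 1.42.0, other scalings and filters, more cells per population, a depth covariate, pairwise products, a replicate block, cells over 10% mt- UMIs left out and each replicate left out. In the check of pairing, same-numbered wells had a mean correlation of deviations of 0.165 in the mixed experiment, with pairs across starts included. It was 0.000626 in the mesendoderm experiment.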

Additional observations from a re-analysis of the deposited data

Results flagged for a closer look

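One control well stood apart. Ndufa4l2 had 24.8 CPM in 1 mesendoderm-start control well of the mixed experiment, against a median of 5.59 CPM over the 8 such wells, and its gap to the next well was 0.658 of the range, above Dixon's critical value of 0.526. Of 36 sets of values looked at in this way 1 was marked, and chance marks about 1 in 20. These sets are shares, ratios and gene levels of the same control wells of both starts, so they are not independent.

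In 5 cases the effect of a signal differed between starts by edgeR's test of the product of start and signal. The log2 values that follow are the effect with the mesendoderm start minus that with the undirected start. For retinoic acid Ndufa4l2 had −1.33 and Cox8a, the widely expressed Cox8 isoform, 0.14. For Wnt Ndufa4l2 had 1.22, Cox5b of complex IV −0.16 and Ndufa12 of complex I −0.19. The Ndufa4l2 difference with retinoic acid kept its call in 9 of 12 alternatives and that with Wnt in 7 of 12.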

How the results depend on the processing

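Under the alternatives 237 counts of members called stayed within 1.5 times the reported count and 67 did not. With more cells per population (at least 100 for germ layer populations, 10 for mesendoderm wells and 20 for mixed wells) members called numbered 17 for germ layer RA and 3 for Fgf; in the mesendoderm experiment 3 for RA, 13 for Wnt, 0 for Tgfb, 12 for Bmp, 0 for Fgf and 0 for Notch; and in the mixed experiment 8 for Bmp, 16 for Fgf, 9 for the start in treated wells, 5 in control wells, and 4, 0 and 1 for RA, Wnt and Fgf by start. This setting leaves fewer populations. With no filter the counts were 1 for germ layer Tgfb and 2 for Fgf, 9, 14, 3 (all mt- and upward, against 21 downward) and 0 for mesendoderm RA, Bmp, Fgf and Notch, and 15, 5, 1 and 1 for mixed Fgf, start in control wells, RA by start and Wnt by start. With a depth covariate they were 19, 0 and 2 for germ layer RA, Tgfb and Fgf and 2 for the start in control wells. With scaling by total UMIs they were 37 for germ layer Wnt (nuclear median log2 change 0.06), 18 for mesendoderm Bmp and 2 for Notch, and the nuclear median for mixed Wnt was −0.05. DESeq2 gave 4 for the start in control wells, 1 for RA by start and 6 for Wnt by start, RLE scaling 2 and 1 for the first 2 of these, and pairwise products 8 for germ layer Tgfb. Leaving mt- and ribosomal protein genes out of the scaling gave 2 for the start in control wells, as did leaving out cells over 10% mt- UMIs. The causes were not tested.

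Leaving out each replicate in turn gave 11 to 16 members called for mesendoderm RA, 22 to 26 for Wnt, 0 to 6 for Tgfb, 21 to 27 for Bmp, 8 to 14 for Fgf, 0 to 1 for Notch and 0 for Shh. In the mixed experiment the ranges were 22 to 36 for RA, 43 to 49 for Wnt, 1 to 5 for Tgfb, 3 to 4 for Bmp, 15 to 20 for Fgf, 15 to 33 for the start in treated wells, 0 to 1 in control wells, 8 to 17 for treated against control wells, 0 for RA by start, 0 to 1 for Wnt by start and 0 for the others. Leaving out a mixed replicate leaves far fewer wells.

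Replicate numbers ran over wells of many conditions, and in the mixed experiment they were given within each start. In the mesendoderm experiment replicates 3 and 4 held fewer wells: 248 and 251 remained without them, against 196 and 205 without replicates 1 and 2. Same-numbered wells did not deviate together throughout: 62.1% of pairs in the mixed and 16.9% in the mesendoderm experiment correlated over 0.1. Wells were not taken as paired. The mixed pairs include wells of different starts, whose numbers are not linked, so this check cannot describe sets within a start. The main fits hold no term for replicate, so their p-values do not account for a difference between sets. The mixed sets still differed as a whole (mean correlation of same-numbered wells 0.165). The value for other wells, −0.165, follows from this one, since the deviations of the 2 wells of a treated condition mirror each other. With the replicate block 4 members were called for the start in control wells, 1 nuclear and 2 mt- higher and 1 nuclear lower. The block gave 43, 66, 8, 15 and 29 for mixed RA, Wnt, Tgfb, Bmp and Fgf and 36 for the start in treated wells, and 16, 27, 2, 33, 18, 1 and 0 for the mesendoderm signals RA, Wnt, Tgfb, Bmp, Fgf, Notch and Shh. The germ layer experiment has 1 population per condition.

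Of single members named, 10 changed sign, and of the changed values Cox8a passed the threshold (adjusted p 0.0205): mt-Nd4 with mesendoderm Fgf and no filter (0.0074), and with mixed Wnt and scaling by total UMIs Atp5g3 (−0.022), Cox6b1 (−0.012), Cox7a2 (−0.0024), Cox7b (−0.00081), Cox8a (−0.048), Ndufa4 (−0.0085), mt-Atp6 (−0.014), mt-Co1 (−0.015) and Uqcr11 (−0.044). mt-Nd6 with Wnt kept its call in 10 of 10 germ layer alternatives (0.61 to 0.67) and 12 of 12 mixed ones (0.75 to 1.00), as did Ndufa4l2 with retinoic acid (1.87 to 2.19 and 1.49 to 1.80). Cox4i1 with Wnt in the mesendoderm experiment kept it in 5 of 14. Depth limits the mesendoderm wells most, where 13 members fell below the filter.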
